A study of Homo sapiens with 28 samples.

Results

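The kinases that act with or beside CDK8 and CDK19 in transcription were followed as 9 genes: the kinases CDK7, CDK9, CDK12 and CDK13, the cyclins CCNH, CCNK, CCNT1 and CCNT2, and HEXIM1, an inhibitor of CDK9. They were chosen by name, as the transcriptional cyclin-dependent kinases and cyclins that might compensate when CDK8 and CDK19 are blocked, and are 9 of the 61815 genes in the count table. RNA was sequenced from LNCaP, a line of human prostate cancer cells that responds to androgen, in 28 libraries of 8 groups. All cells were wild type and were kept for 72 h in medium with charcoal-stripped serum (CSS), which is depleted of androgen, before the drugs were added. In the 24 h experiment, groups of 3 libraries received vehicle (0.1% DMSO), the CDK8/19 inhibitor Senexin B at 1 µM, the synthetic androgen R1881 at 0.1 nM, or R1881 and Senexin B together. In the 72 h experiment, groups of 4 libraries received vehicle (0.1% DMSO), the chemically unrelated CDK8/19 inhibitor SNX631 at 500 nM, R1881 at 1 nM, or R1881 and SNX631 together. The doses are those of the sample labels, and the text of the study names another dose of Senexin B. Inhibitor, androgen dose and duration changed together between the experiments, so their parts in a difference between them cannot be told apart. All libraries came from 1 line, and the study's methods call the replicates biological. The labels do not say how the cultures were kept apart, so p-values measure only the spread between these libraries.

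RNA polymerase II is driven from initiation to elongation by kinases that phosphorylate the tail of its largest subunit. CDK7 with cyclin H (CCNH) sits in the general factor TFIIH and acts at initiation, and CDK9 with cyclin T1 or T2 (CCNT1, CCNT2) forms P-TEFb, which releases polymerase paused near the promoter. CDK12 and CDK13 with cyclin K (CCNK) act later in elongation, and CDK12 is known for sustaining long DNA repair genes. HEXIM1, named for its induction by hexamethylene bisacetamide, holds P-TEFb inactive in a particle built on 7SK RNA. CDK8 and CDK19, the targets of both drugs, belong to the kinase module of Mediator, which contacts the same polymerase from the enhancer side.

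Total counts per library ranged from 9846595 to 33809419, with vehicle replicate 3 at 24 h the deepest and the next at 15248512. The members had 235 to 4048 counts in each library, and all 9 passed the filter on low counts in both experiments. Such numbers cover counting error only, because reads were counted without molecular identifiers. Markers of luminal prostate cells were present in every library, with a summed level of 2835 to 4238 CPM (counts scaled to the size of each library) over 9 genes. Of 5 markers of other cells, PTPRC (leukocytes), PECAM1 (endothelium), TP63 and KRT5 (basal epithelium) had 3 counts or fewer in every library, and the sum over the list, nearly all of it COL1A1, was 7.41 to 31.2 CPM. In bulk RNA, fewer cells of a type and less RNA per cell cannot be told apart.

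HEXIM1 lies on chromosome 17 at 45148502 to 45152101 (GRCh38, plus strand, GENCODE 29) as a single-exon gene. RefSeq (GRCh38.p14) gives a start site for all 9 members, and the 250 bases before it are printed for HEXIM1, the member whose level moved most, and for CDK9 and CCNT1, the P-TEFb subunits that HEXIM1 holds, so that their letters can be compared. Capitals mark matches on either strand to 4 short motifs. They are TATAAA, the core of the box that fixes some start sites, CCAAT, a common promoter box, GGGCGG, the GC box of Sp factors, and AGAACA, a hexamer of androgen response elements.
HEXIM1 at chr17:45148225-45148474, plus strand: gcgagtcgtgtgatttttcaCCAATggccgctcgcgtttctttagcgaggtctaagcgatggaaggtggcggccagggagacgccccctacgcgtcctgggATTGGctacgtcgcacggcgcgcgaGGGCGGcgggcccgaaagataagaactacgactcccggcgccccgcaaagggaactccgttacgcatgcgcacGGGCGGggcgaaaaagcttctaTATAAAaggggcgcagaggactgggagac
CDK9 at chr9:127785784-127786033, plus strand: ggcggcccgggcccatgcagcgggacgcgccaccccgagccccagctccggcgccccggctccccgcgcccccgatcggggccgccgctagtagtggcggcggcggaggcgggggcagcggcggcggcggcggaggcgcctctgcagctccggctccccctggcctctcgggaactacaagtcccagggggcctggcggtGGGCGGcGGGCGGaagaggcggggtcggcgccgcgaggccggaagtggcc
CCNT1 at chr12:48716708-48716957, minus strand: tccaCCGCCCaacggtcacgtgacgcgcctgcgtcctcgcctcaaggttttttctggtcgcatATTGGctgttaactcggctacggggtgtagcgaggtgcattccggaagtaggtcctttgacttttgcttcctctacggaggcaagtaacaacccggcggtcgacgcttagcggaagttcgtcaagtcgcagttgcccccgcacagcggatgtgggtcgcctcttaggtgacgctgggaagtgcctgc
The HEXIM1 window held TATAAA, 29 bases before the start, with 2 CCAAT and 2 GGGCGG matches. TATAAA was in no other window of a member. This motif was in 10.7% of 35116 RefSeq windows of this length, CCAAT in 32.0%, GGGCGG in 42.6% and AGAACA in 12.4%. The CDK9 window held 2 GGGCGG matches, at 50 and 43 bases before the start, and was 82.0% G or C. The CCNT1 window held 1 match each to CCAAT and GGGCGG, both on the other strand. AGAACA was in none of these 3 windows, and among the members it matched only in 1 of the 2 RefSeq windows of CDK7. A match of letters is a description and not a bound site.

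Compared per length, as CPM per kilobase of annotated exon, CDK9 was the most abundant member in LNCaP cells and CDK13 the least. In the vehicle group at 24 h, CDK9 stood at 25.9 ± 0.824 CPM per kilobase (SD, n = 3), followed by CDK7 at 13.9 ± 0.614 and CCNT1 at 13.2 ± 0.517. CCNH at 10.3 ± 0.796, HEXIM1 at 9.89 ± 0.644 and CDK12 at 9.45 ± 0.392 formed the middle of the order. CCNK at 6.46 ± 0.385, CCNT2 at 5.95 ± 0.202 and CDK13 at 2.77 ± 0.0530 closed it. The libraries of CDK7 and CCNT1 overlapped, as did those of CCNH and HEXIM1 and of HEXIM1 and CDK12, whereas the other neighbours did not. At 72 h the vehicle libraries again put CDK9 first, at 21.3 ± 0.310 (SD, n = 4), and CDK13 last, at 2.86 ± 0.105. The neighbours that overlapped at 72 h were CCNT1 and CDK7, HEXIM1 and CCNH, CCNH and CDK12, and CCNK and CCNT2. Exon lengths count every annotated isoform, so levels per length are low estimates for members with several isoforms, to a degree that was not measured. CDK13 has the longest, at 25093 bases, and CDK7 the shortest, at 2416. Reads of CCNK could not be separated with certainty from CCDC85C, which covers 4893 of its 8220 exon bases on the opposite strand, because the use of strand in counting is not given in the sources used here. HEXIM1 shares 520 of 3600 bases with an antisense gene (AC138150.1) in the same way, and CCNH 771 of 6070 with RASA1. On the same strand, CDK9 shares 90 of its 3000 exon bases with the microRNA gene MIR2861 and 91 with MIR3960.

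HEXIM1 varied most across the 8 groups and the other members little. The highest group mean of HEXIM1 was 2.22 times its lowest, a range of 1.16 on the log2 CPM scale, while the 8 kinases and cyclins ranged between 1.12-fold (CDK13) and 1.34-fold (CCNT2). CDK9 varied by 1.31-fold, and most of that lay between the experiments, where its vehicle libraries stood at 75.4 to 80.3 CPM at 24 h and at 62.8 to 64.9 CPM at 72 h, a difference between experiments that was not tested.

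**Figure D1:**
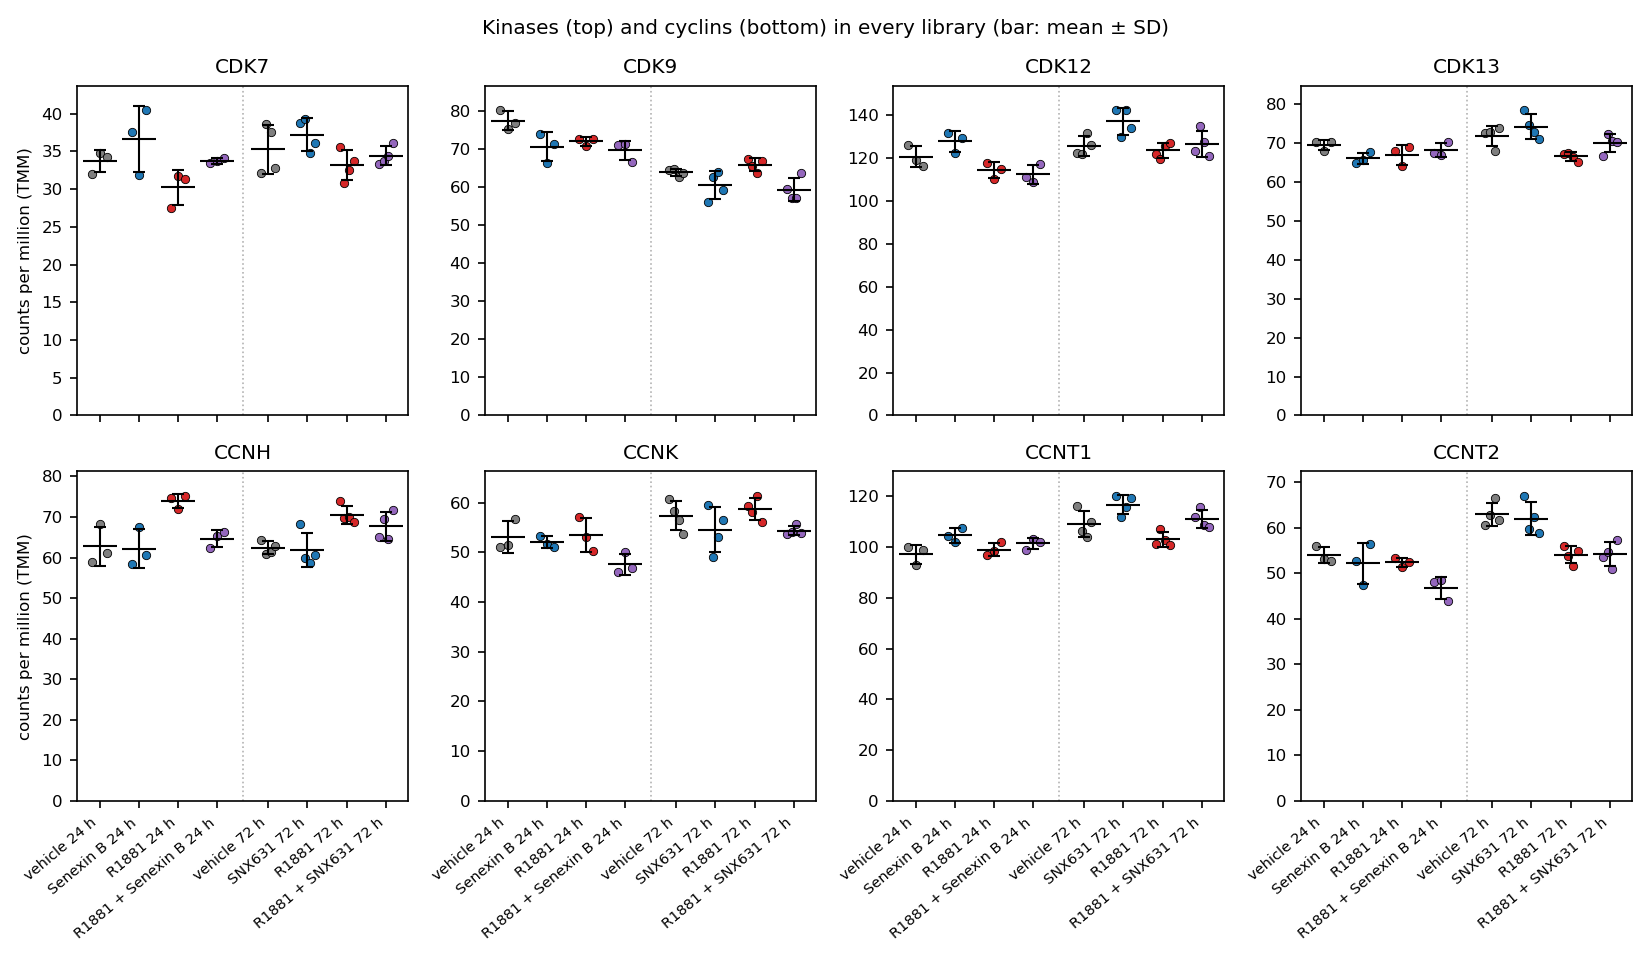
CPM (TMM-scaled) of the 4 kinases and 4 cyclins in every library, by group, with the y axis from 0 in each panel; points are libraries and bars the mean ± SD (n = 3 at 24 h, n = 4 at 72 h). Group means stay within 1.34-fold of each other for every gene shown, with CCNH highest under R1881 and CCNT2 highest in the 72 h vehicle and SNX631 groups.

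Each inhibitor was compared with its control, without and with R1881, to ask whether blocking CDK8 and CDK19 changed RNA of the other kinases. HEXIM1 was the member with the largest response. Its vehicle libraries at 24 h had 33.1, 37.7 and 36.0 CPM, and its Senexin B libraries had 19.4, 19.8 and 21.1 CPM. The groups did not overlap, and every library with Senexin B was well under every vehicle library. HEXIM1 fell by 0.84 on the log2 scale (SE 0.068, FDR 1.18e-11), and 2.62% of the genes tested had a larger effect in either direction. It was the 1 member of 9 past an FDR of 0.01 and a 1.5-fold change, limits that 3.76% of all genes passed in this comparison, and the 1 member past the FDR limit alone, which 25.1% of genes passed. COL1A1, a fibroblast collagen gene and the 1 marker of other cells above 3 counts, was lower in the same libraries, at 22.4 to 24.7 CPM in vehicle and 10.5 to 12.5 CPM with Senexin B, and its part in the result was not tested.

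The same gene fell with SNX631. Vehicle libraries at 72 h had 36.9, 38.2, 38.4 and 41.6 CPM of HEXIM1, and SNX631 libraries had 26.0, 28.8, 28.3 and 33.9 CPM. Again the groups did not overlap, with SNX631 replicate 4 the closest to the controls. HEXIM1 fell by 0.40 (log2, SE 0.064, FDR 3.07e-06), which is less than 1.5-fold. Without SNX631 replicate 4 it fell by 0.48. In this comparison 2 of 9 members passed the FDR limit, HEXIM1 and CDK12, against 26.9% of all genes, and 0 passed both limits, in edgeR or in DESeq2, against 4.76%, while 3 had an unadjusted p under 0.05 in edgeR. With scaling to library totals only, 1 passed the FDR limit, against 27.4% of all genes. COL1A1 was again lower, at 27.7 to 31.2 CPM in vehicle and 18.1 to 21.5 CPM with SNX631, and its part was not tested.

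With R1881 present the estimated inhibitor effects on HEXIM1 were nearer to 0, a difference that passed its test for Senexin B and not for SNX631 (interaction 0.16, FDR 0.252). R1881 libraries at 24 h had 32.5, 29.6 and 29.2 CPM and those with R1881 and Senexin B had 24.6, 25.4 and 27.8 CPM, groups that did not overlap but lay close. The log2 fold change was −0.22 (95% interval −0.37 to −0.07, FDR 0.0171) and did not pass. At 72 h, R1881 libraries had 45.6, 46.3, 41.9 and 45.3 CPM and those with R1881 and SNX631 had 36.2, 34.7, 38.2 and 42.1 CPM, and the highest of the latter lay just above the lowest of the former. HEXIM1 fell by 0.24 there (log2, SE 0.059, FDR 0.000912). COL1A1 was lower with the inhibitor in these comparisons too, at 14.2 to 15.2 against 7.41 to 8.78 CPM at 24 h and 16.9 to 24.1 against 10.2 to 12.7 CPM at 72 h, and its part was not tested. With R1881 present, 1 of 9 members passed the FDR limit under Senexin B, against 22.6% of all genes, and 2 of 9 under SNX631, against 33.2%. Past both limits were 0 of 9 in each, in edgeR and in DESeq2, against 3.12% and 4.11%, while 5 and 4 had an unadjusted p under 0.05 in edgeR.

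**Figure D2:**
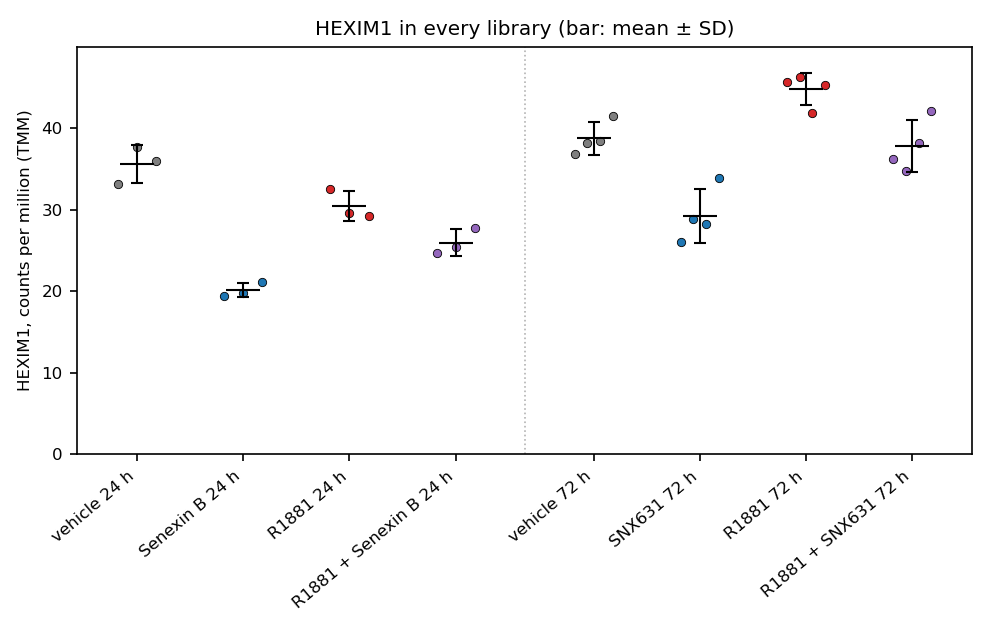
HEXIM1 in CPM (TMM-scaled) in each of the 28 libraries, by group, with the y axis from 0; points are libraries and bars the mean ± SD (n = 3 at 24 h, n = 4 at 72 h). Senexin B libraries sit at 19.4 to 21.1 CPM, under the 33.1 to 37.7 CPM of their vehicle, and the R1881 group at 72 h is the highest of all.

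The RNA of the kinases themselves changed little under either inhibitor. Protein and kinase activity were not measured in these libraries. Over the 16 effects of the 4 kinases in the 4 inhibitor comparisons, log2 fold changes ran from −0.15 to 0.17, and 2 passed the FDR limit. CDK12, the kinase of elongating polymerase, had 123, 122, 132 and 126 CPM in vehicle and 142, 130, 142 and 134 CPM with SNX631 at 72 h. The highest vehicle library overlapped the lowest SNX631 library, and CDK12 rose by 0.13 (log2, SE 0.036, FDR 0.00382). This call was lost without vehicle replicate 1 or 2 or SNX631 replicate 1 or 3, when the log2 fold change was 0.11 (FDR 0.0202 to 0.0267), and with scaling to library totals only (log2 0.10, FDR 0.0215).

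CDK9, the P-TEFb kinase, had 67.4, 65.6, 63.7 and 67.1 CPM with R1881 at 72 h and 59.6, 57.2, 57.2 and 63.7 CPM with R1881 and SNX631. The groups did not overlap but lay edge to edge, and CDK9 fell by 0.15 (log2, SE 0.043, FDR 0.00428). The call was lost without R1881 replicate 1, 2 or 4 or R1881 + SNX631 replicate 2 or 3, with log2 fold changes of −0.13 to −0.15 (FDR 0.0107 to 0.0240), with DESeq2 (FDR 0.0184) and with no filter on low counts (FDR 0.0159). CDK9 was also lower with Senexin B alone, at 74.1, 66.5 and 71.3 CPM against 80.3, 75.4 and 77.0 CPM in vehicle, with a log2 fold change of −0.14 that did not pass (FDR 0.0167). CDK9 values were fractional in 23 of 28 libraries and CDK12 values in 18, and how such fractions arose is not given in the sources used here. CDK7 and CDK13 did not pass in any of the 4 inhibitor comparisons, and the widest of the 95% intervals of the 4 kinases, for CDK7, ended at 0.32 on the log2 scale, a 1.25-fold change.

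The cyclins changed as little in RNA. Their 16 inhibitor effects ran from −0.19 to 0.11 on the log2 scale, 1 passed, and their widest interval reached a 1.23-fold change. CCNH, the partner of CDK7, had 74.6, 71.9 and 75.2 CPM with R1881 at 24 h and 62.4, 65.2 and 66.4 CPM with R1881 and Senexin B, groups that did not overlap. It fell by 0.19 (log2, SE 0.055, FDR 0.00931). The call was lost without R1881 replicate 1 or 3 or any of the R1881 + Senexin B replicates 1, 2 and 3 (log2 −0.17 to −0.20, FDR 0.0152 to 0.0395) and with DESeq2 (FDR 0.0278). In the same comparison CCNK and CCNT2 had log2 fold changes of −0.16 each that did not pass (FDR 0.0308 and 0.0364). CCNT1, the main cyclin of P-TEFb, was 0.10 higher on the log2 scale with Senexin B (FDR 0.0494) and 0.10 higher with SNX631 (FDR 0.0213), and 0.11 higher with SNX631 and R1881 (FDR 0.0134), none of which passed. Under Senexin B alone, 0 of the 8 kinases and cyclins passed in edgeR and 0 in DESeq2, while 3 and 2 of them had an unadjusted p under 0.05. Across all 32 inhibitor effects on kinases and cyclins, 3 passed, and the widest 95% interval reached a 1.25-fold change.

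**Figure D3:**
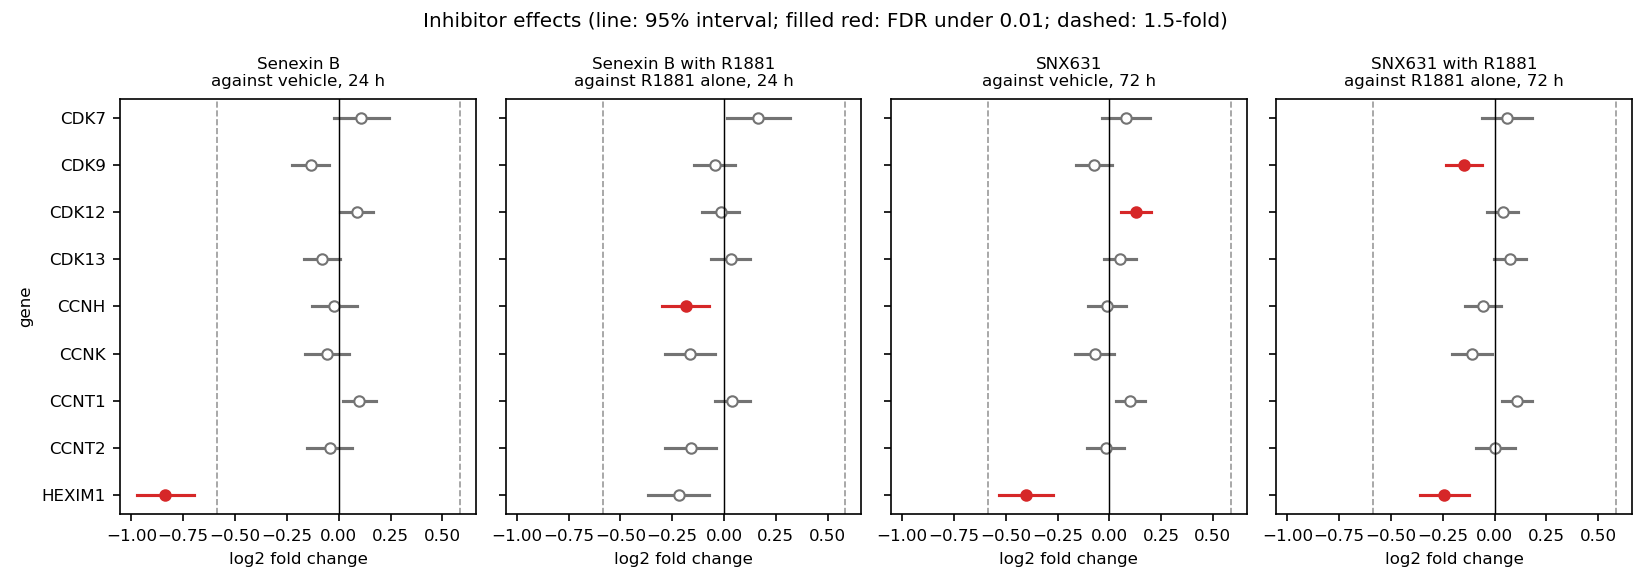
Log2 fold change of each member in the 4 inhibitor comparisons (x axis, 1 panel each); lines are 95% intervals, filled red points passed an FDR of 0.01 and dashed lines mark a 1.5-fold change. HEXIM1 with Senexin B at −0.84 is the 1 point past a dashed line, and the 8 kinases and cyclins lie between −0.19 and 0.17.

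To ask whether androgen itself set the level of these genes, R1881 was compared with its control in the absence and in the presence of each inhibitor. HEXIM1 moved in opposite directions in the 2 experiments. At 24 h, R1881 at 0.1 nM lowered HEXIM1, from the 33.1 to 37.7 CPM of vehicle to 29.2 to 32.5 CPM, without overlap, and the gene fell by 0.24 (log2, SE 0.063, FDR 0.00173). This call was lost without vehicle replicate 2 or 3 or R1881 replicate 2 or 3 (log2 −0.20 to −0.22, FDR 0.0129 to 0.0211) and with DESeq2 (FDR 0.0313). COL1A1 was lower with R1881 in both experiments, at 14.2 to 15.2 CPM against 22.4 to 24.7 at 24 h and at 16.9 to 24.1 CPM against 27.7 to 31.2 at 72 h, and its part was not tested. At 72 h, R1881 at 1 nM raised HEXIM1, from 36.9 to 41.6 CPM to 41.9 to 46.3 CPM, groups that lay edge to edge, by 0.21 (log2, SE 0.060, FDR 0.00291). This call was lost without vehicle replicate 1 or 2 or R1881 replicate 2 (log2 0.18 to 0.20, FDR 0.0103 to 0.0153). It was also lost with scaling to library totals only (log2 0.11, FDR 0.125), a scaling that moved the median of all genes by −0.10 in this comparison. The effect at 72 h exceeded that at 24 h by 0.44 (log2, SE 0.092, FDR 0.000451), the 1 difference of 9 that passed, against 7.57% of all genes.

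On top of an inhibitor, R1881 raised HEXIM1 in both experiments. With Senexin B present, libraries went from 19.4 to 21.1 CPM up to 24.6 to 27.8 CPM with R1881, without overlap, and HEXIM1 rose by 0.38 (log2, SE 0.076, FDR 6.24e-05). With SNX631 present, they went from 26.0 to 33.9 CPM up to 34.7 to 42.1 CPM, again without overlap, and HEXIM1 rose by 0.37 (log2, SE 0.063, FDR 3.13e-06). COL1A1 was lower with R1881 here too, at 7.41 to 8.78 CPM against 10.5 to 12.5 with Senexin B and 10.2 to 12.7 CPM against 18.1 to 21.5 with SNX631, and its part was not tested. Both HEXIM1 calls held with each library left out in turn.

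Among the cyclins, R1881 alone raised CCNH in both experiments and lowered CCNT2 at 72 h. CCNH had 58.9, 68.2 and 61.2 CPM in vehicle and 74.6, 71.9 and 75.2 CPM with R1881 at 24 h, without overlap, and rose by 0.24 (log2, SE 0.052, FDR 0.000241). At 72 h it had 64.4, 60.9, 61.4 and 62.9 CPM in vehicle and 73.9, 69.8, 69.9 and 68.8 CPM with R1881, and rose by 0.18 (log2, SE 0.044, FDR 0.000700). The 72 h call was lost with scaling to library totals only (log2 0.07, FDR 0.136). With Senexin B present, the R1881 effect on CCNH at 24 h did not pass (log2 0.07, FDR 0.268). The CCNH interaction of R1881 and Senexin B did not pass either (−0.16, FDR 0.265).

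CCNT2, the alternative cyclin of P-TEFb, had 60.6, 62.8, 66.6 and 61.8 CPM in vehicle and 56.0, 53.8, 51.6 and 55.0 CPM with R1881 at 72 h. The groups did not overlap, and CCNT2 fell by 0.22 (log2, SE 0.046, FDR 7.86e-05). In the presence of SNX631 it fell by 0.20 (FDR 0.000172), from 58.9 to 67.0 CPM down to 51.0 to 57.4 CPM. At 24 h the R1881 effect on CCNT2 did not pass. CCNH in the presence of SNX631 was 0.13 higher with R1881 (log2, FDR 0.00758), in overlapping groups, and that call was lost without any of SNX631 replicates 2, 3 and 4 or R1881 + SNX631 replicates 2 and 4 (log2 0.10 to 0.12, FDR 0.0213 to 0.0447). It was also lost under 4 of 8 other settings, with a log2 fold change of 0.02 when scaled to library totals only.

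Among the kinases, CDK12 passed with R1881 in the main fit only where an inhibitor was present, and was lower there. With R1881 alone its log2 fold changes were −0.07 at 24 h (FDR 0.149) and −0.02 at 72 h (FDR 0.603). Its interactions did not pass, at −0.10 with Senexin B (FDR 0.416) and −0.09 with SNX631 (FDR 0.273). A dependence of the R1881 effect on the inhibitor was therefore not shown. With Senexin B, CDK12 had 132, 122 and 129 CPM, and 111, 109 and 117 CPM once R1881 was added, without overlap. It fell by 0.17 (log2, SE 0.042, FDR 0.000857), a call that held with each library left out. With SNX631 it fell by 0.11 (log2, SE 0.035, FDR 0.00471), in overlapping groups of 130 to 142 and 121 to 135 CPM. The latter call was lost without SNX631 replicate 1 or 3 or R1881 + SNX631 replicate 1 or 4 (log2 −0.09 to −0.10, FDR 0.0171 to 0.0281), with DESeq2 (FDR 0.0307) and with no filter on low counts (FDR 0.0356). CDK7, CDK9 and CDK13 did not pass in any of the 4 R1881 comparisons in the main fit. Under other settings some gained a call, all lower with R1881. Such gains included CDK7 (FDR down to 0.00371) and CDK9 (down to 0.00125) with R1881 alone at 24 h. At 72 h they included CDK13 with R1881 alone (down to 1.38e-05), and CDK7 (0.000621) and CDK13 (2.13e-05) on top of SNX631. Scaling to library totals only, 1 of these settings, moved the median of all genes the same way. The shift was −0.08 with R1881 alone at 24 h, −0.10 with R1881 alone at 72 h and −0.11 on top of SNX631. Its part in these gains was not tested.

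With TMM scaling, a smaller share of the members than of all genes passed the FDR limit in each R1881 comparison. With R1881 alone 2 of 9 members passed at 24 h, against 48.3% of all genes, and 3 of 9 at 72 h, against 52.2%. With R1881 on top of Senexin B 2 of 9 passed, against 47.5%, and on top of SNX631 4 of 9, against 57.2%. The 32 R1881 effects on kinases and cyclins ran from −0.22 to 0.24 on the log2 scale, with the widest 95% interval at a 1.27-fold change, and 0 of the 9 members passed both limits in edgeR or in DESeq2, although 4 to 7 had an unadjusted p under 0.05 in edgeR. Both limits were passed by 18.9% to 22% of all genes (19% and 19.8% with R1881 alone). With scaling to library totals only the members were not fewer in every comparison: 5 passed the FDR limit with R1881 alone at 24 h (50.7% of all genes under that scaling), 4 on top of Senexin B (49.4%), 5 with R1881 alone at 72 h (55.2%) and 7 on top of SNX631 (59.7%).

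**Figure D4:**
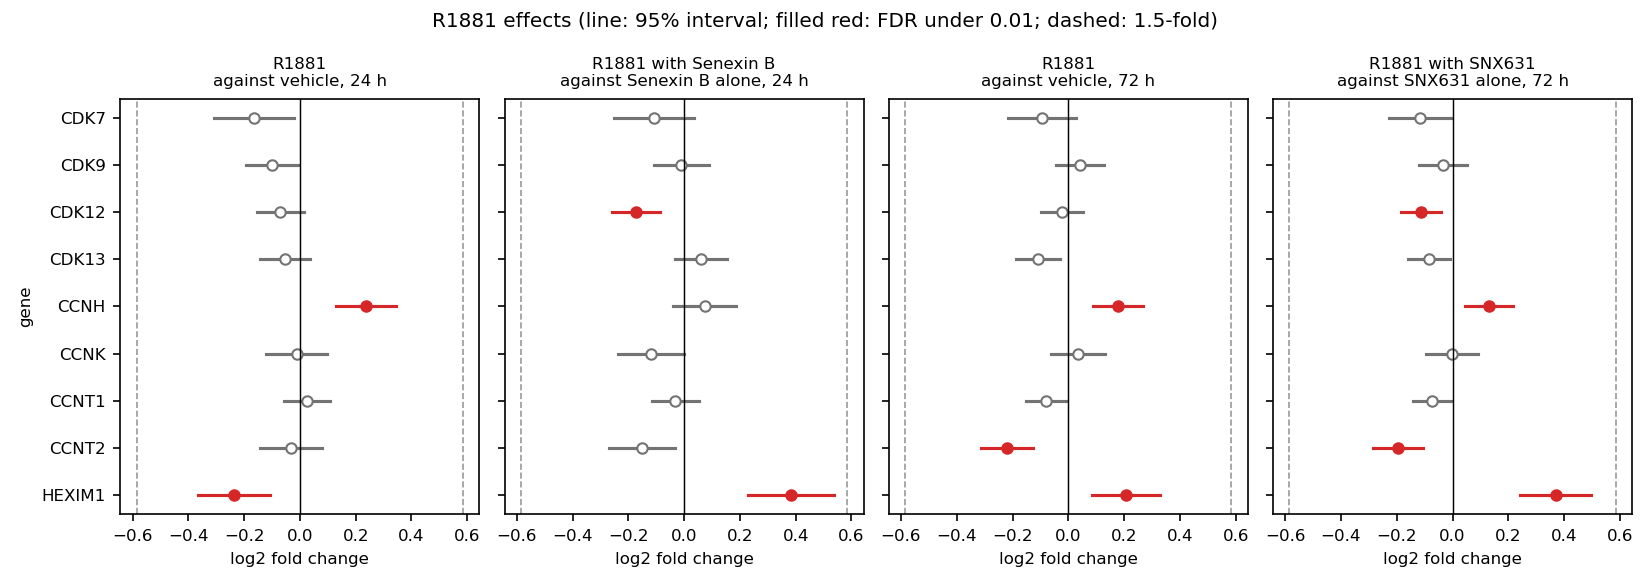
Log2 fold change of each member in the 4 R1881 comparisons (x axis, 1 panel each); lines are 95% intervals, filled red points passed an FDR of 0.01 and dashed lines mark a 1.5-fold change. HEXIM1 is at −0.24 at 24 h and at 0.21 to 0.38 in the other panels, and no point passes a dashed line.

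Whether androgen changed the response to the inhibitor was tested as an interaction. For HEXIM1 at 24 h the interaction of R1881 and Senexin B was 0.62 (log2, SE 0.098, FDR 8.32e-05), the 1 of 9 members past the FDR limit, which 2.09% of all genes passed, and past a 1.5-fold change, which 0.583% passed. It stayed past the FDR limit without each library in turn, at 0.56 to 0.65, but was under 1.5-fold in the 5 fits without vehicle replicate 2, Senexin B replicate 1, R1881 replicate 2 or 3 or R1881 + Senexin B replicate 3 (0.56 to 0.58). At 72 h the interaction of R1881 and SNX631 was 0.16 (95% interval −0.02 to 0.34, FDR 0.252) and did not pass. Of the 9 members 0 passed there in edgeR or in DESeq2, with 0 at an unadjusted p under 0.05 in either, against 7.09% of all genes past the limit. For the 8 kinases and cyclins the 2 interactions ran from −0.16 to 0.11, with the widest interval at a 1.25-fold change.

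The effects of the 2 inhibitors were set against each other in a fit of all libraries. Without R1881, the SNX631 effect on HEXIM1 was less negative than the Senexin B effect by 0.42 (log2, SE 0.099, FDR 0.00526), the 1 member of 9 that passed, against 2.31% of all genes. The call was lost without vehicle replicate 2 or 3, Senexin B replicate 1 or 2 or SNX631 replicate 4 (0.37 to 0.44, FDR 0.0110 to 0.0248). With R1881, the difference was −0.02 (95% interval −0.22 to 0.18, FDR 0.95). Of the 9 members 0 passed with R1881 in edgeR or in DESeq2, with 1 at an unadjusted p under 0.05 in each, against 2.65% of all genes.

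Beyond the members, 64 genes of the same machinery were read in 9 lists, and under the inhibitors alone most changes were small. Senexin B alone left 22 of 64 past the FDR limit (10 higher, 12 lower) and SNX631 alone 19 (12 higher, 7 lower), beside 25.1% and 26.9% of all genes, and 3 in each case also passed 1.5-fold, beside 3.76% and 4.76%. Named after their values were seen, those with Senexin B were GTF2H2, a TFIIH subunit with near-identical gene copies, at 0.63 (log2, SE 0.048), MYC at 0.60 (SE 0.032) and MED12L, a paralogue of Mediator's MED12, at −0.60 (SE 0.17). The MED12L call was lost without vehicle replicate 1 or any of Senexin B replicates 1, 2 and 3 (log2 −0.50 to −0.62, FDR 0.0145 to 0.0282), and it was also under 1.5-fold without vehicle replicate 1 (−0.50) or Senexin B replicate 3 (−0.55). Those with SNX631 were BRCA1, FANCI and FANCD2. GTF2H2 and MYC also rose with SNX631 alone, by 0.54 (log2, FDR 3.41e-13) and 0.49 (FDR 6.22e-18), under 1.5-fold. With R1881 present they rose by 0.42 and 0.47 (log2) with Senexin B and by 0.44 and 0.63 with SNX631. The median log2 fold change over the 64 was −0.02 and 0.03, beside 0.00 for all genes tested in each. The drug targets themselves rose somewhat with Senexin B, CDK8 by 0.36 (log2, SE 0.053, FDR 3.16e-06) and CDK19 by 0.15 (SE 0.032, FDR 0.000328). CDK19 also rose with SNX631, by 0.19 (SE 0.027, FDR 4.54e-07), while CDK8 at 0.15 did not pass (FDR 0.0234).

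Of the partners of HEXIM1, 2 are given here, named after their values were seen. MEPCE, the capping enzyme of 7SK RNA, rose by 0.16 with SNX631 alone (log2, FDR 0.00486) and was at 0.0013 with Senexin B alone (log2, FDR 0.99). The SNX631 call was lost without vehicle replicate 1, 2 or 3 or SNX631 replicate 2 or 4 (log2 0.12 to 0.16, FDR 0.0123 to 0.0374), with library totals only (FDR 0.0204) and with DESeq2 (FDR 0.0150). HEXIM2 is the paralogue of HEXIM1. Its group means were 9.05 to 11.6 CPM, with log2 fold changes of −0.10 with Senexin B (FDR 0.479) and −0.06 with SNX631 (FDR 0.664), and it fell by 0.36 with R1881 at 24 h (FDR 0.00396). The R1881 call was lost without vehicle replicate 2 or 3 or R1881 replicate 1 or 3 (log2 −0.26 to −0.35, FDR 0.0105 to 0.0844) and with DESeq2 (FDR 0.0652).

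The super elongation complex, which carries P-TEFb to paused polymerase, held 3 genes that rose strongly with R1881 in both experiments. Of its 10 genes, 6 passed at 24 h (4 higher, 2 lower), beside 48.3% of all genes, and 6 at 72 h (4 higher, 2 lower), beside 52.2%. EAF2, a partner of the ELL proteins, had 1.61, 2.43 and 2.51 CPM in vehicle and 29.4, 29.9 and 28.1 CPM with R1881 at 24 h, and rose by 3.64 (log2, SE 0.14, FDR 9.92e-23) and at 72 h by 3.81 (SE 0.16, FDR 7.59e-27). AFF3, a scaffold of the complex, rose by 2.37 (SE 0.084) and 2.62 (SE 0.073). ELL2, an elongation factor, rose by 1.93 (SE 0.058) and 2.67 (SE 0.057). None of these 3 passed with either inhibitor alone. With an inhibitor on top of R1881, 1 of their 6 effects passed, that of SNX631 on ELL2, which fell by 0.14 (FDR 0.00142), a call lost with DESeq2 (FDR 0.0150). The list's median was −0.04 at 24 h and 0.08 at 72 h, since its other genes moved less.

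Of 6 transcripts known to depend on these kinases, 5 rose and 1 fell with R1881 at 24 h, and 4 rose and 2 fell at 72 h, beside 48.3% and 52.2% of all genes that passed in either direction. BRCA1, FANCI and FANCD2, long DNA repair genes of the kind that CDK12 sustains, rose with R1881 by 2.73, 2.05 and 1.27 (log2) at 24 h and by 1.34, 1.47 and 0.97 at 72 h. These 3 were named because they passed both limits in the same direction in both experiments. With R1881 alone the others, ATR, MYC and MCL1, passed the FDR limit but stayed under 1.5-fold. MYC rose by 0.17 at 24 h, a call lost with library totals only (FDR 0.0187), and fell by 0.22 at 72 h. The lowest of the 6 at 24 h was at −0.18. With SNX631 alone BRCA1, FANCI and FANCD2 also rose, by 1.03 (SE 0.059), 0.96 (SE 0.042) and 0.86 (SE 0.060). BRCA1 had 19.3, 20.5, 21.8 and 22.7 CPM in vehicle at 72 h and 43.8, 41.4, 44.5 and 42.5 CPM with SNX631, without overlap, while CDK12 in the same libraries differed by 0.13. A part of CDK12 in these changes was not tested. Of the 6 transcripts, 5 passed with SNX631 alone, all higher, beside 26.9% of all genes. With Senexin B alone 5 passed (4 higher, 1 lower), beside 25.1%. With Senexin B alone BRCA1 rose by 0.40 (SE 0.11, FDR 0.00618) and FANCD2 by 0.39 (SE 0.086, FDR 0.000616), and FANCI at 0.23 did not pass (FDR 0.0154). The BRCA1 call was lost without vehicle replicate 1 or 3 or Senexin B replicate 1 or 2 (log2 0.27 to 0.39, FDR 0.0132 to 0.143) and with library totals only (FDR 0.0132), and the FANCD2 call without vehicle replicate 3 (log2 0.29, FDR 0.0314). In the kinase module of Mediator, R1881 lowered CDK8 by 1.07 (log2, SE 0.069) at 24 h and 0.97 (SE 0.064) at 72 h and raised CDK19 by 0.46 (SE 0.032) and 0.36 (SE 0.027), while MED12L rose with R1881 by 1.07 (log2, SE 0.13) at 24 h and by 0.75 (SE 0.15) at 72 h. On top of an inhibitor, R1881 raised MED12L by 2.30 with Senexin B and by 0.97 with SNX631. The study describes MED12L as very weakly expressed in prostate cancer, and its level in these libraries is not given here. With R1881 present Senexin B raised MED12L by 0.62 (log2, FDR 6.00e-05), opposite to its fall without R1881. SNX631 did not pass there (0.28, FDR 0.0772). The MED12L interaction at 24 h was 1.225, the 1 of the 64 genes past the FDR limit, which 2.09% of all genes passed.

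In the remaining lists each inhibitor alone is set beside the 25.1% of all genes that passed with Senexin B and the 26.9% with SNX631. Of 8 CAK and TFIIH partners of CDK7, 3 passed with Senexin B and 2 with SNX631, all higher, with list medians of 0.11 and 0.09. Of 6 CTD phosphatases, which remove the marks these kinases set, 3 passed with Senexin B and 3 with SNX631, all lower, with medians of −0.14 and −0.17. Of 6 other transcriptional or RNA-processing CDKs and cyclins, 1 passed with Senexin B and 2 with SNX631, all higher. Of 10 genes of the PAF1 complex and other elongation factors, 3 and 1 passed, all lower, and of 6 genes of DSIF and NELF, 1 passed with Senexin B, lower, and 1 with SNX631, higher.

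**Figure D5:**
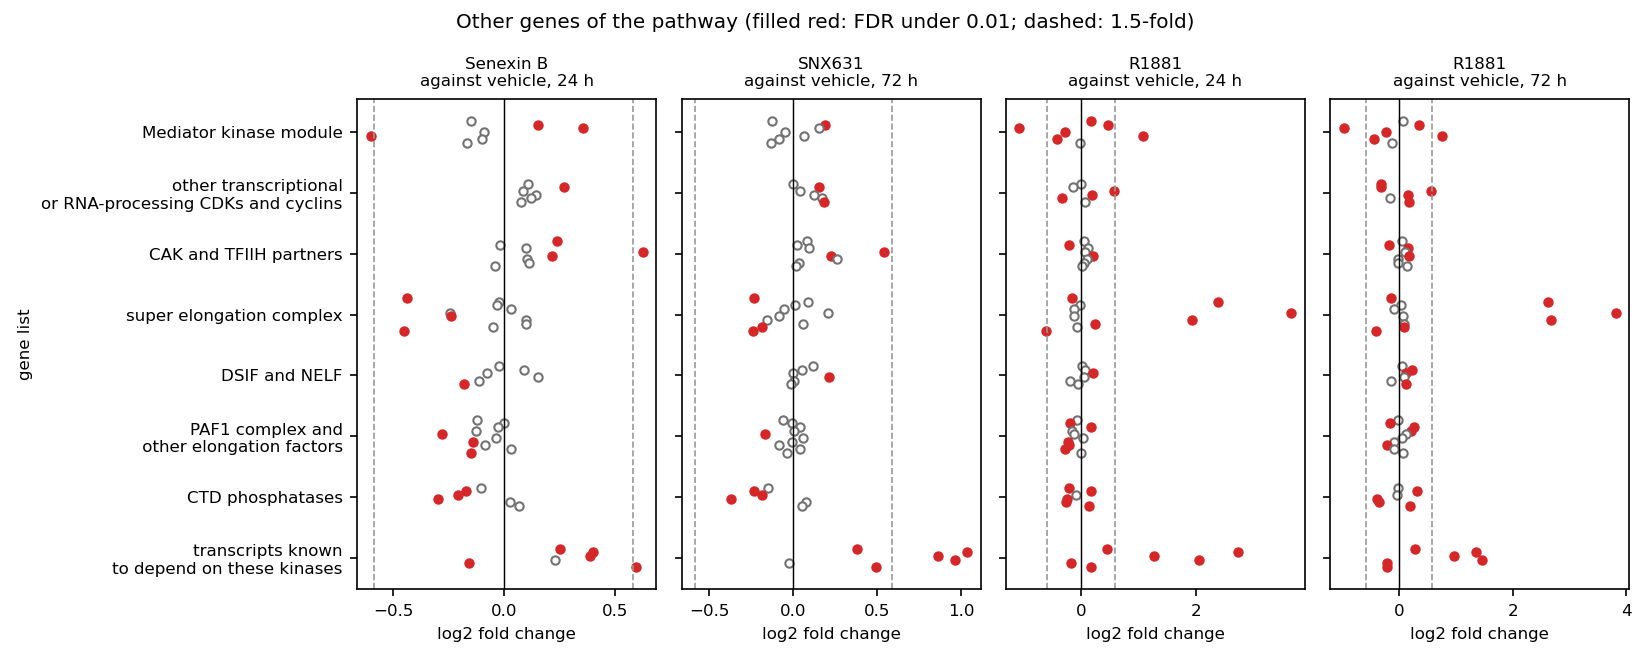
Log2 fold change (x axis, its own scale in each panel) of the other genes in 8 of the 9 lists (y axis) with each inhibitor alone and with R1881 alone; each point is 1 gene, filled red where it passed an FDR of 0.01, and dashed lines mark a 1.5-fold change. EAF2, AFF3 and ELL2 stand out to the right in the super elongation complex with R1881, at 1.93 to 3.81.

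Over the 28 libraries, the genes whose log2 CPM followed that of HEXIM1 most closely among 16685 compared were TIPRL (Pearson r = 0.927), CHD3 (0.924), PDIA3 (0.907), ACTR2 (0.904) and PPP3CB (0.903). Among the members, the closest was CCNK, with r = 0.575, and CDK9, its kinase, had r = −0.226. These correlations describe 28 libraries that share 8 groups and 1 scaling, and they carry no test.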

How the data were processed

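The authors deposited 1 table of expected counts per gene (estimated counts, 16.9% of the values above 0 fractional) for all 28 libraries, which were made with a directional kit. The submitters' processing notes name FastQC, cutadapt 2.8, STAR 2.7.2b and featureCounts of Subread 2.0.3, with the builds GRCh38.p13 and GRCm39 and no role for either. The annotation release and the use of strand are not given in the sources used here. Values were rounded to whole counts and tested with edgeR 4.0.16 (R 4.3.3), by its quasi-likelihood test with TMM scaling, after a filter on low counts (minimum 10, total 15). Each experiment was fitted alone (15963 genes at 24 h, 16084 at 72 h), and differences between experiments came from all 28 libraries (16685 genes). A gene passed at a Benjamini-Hochberg adjusted p (FDR) under 0.01, over all genes tested, and 1.5-fold was a second limit. DESeq2 1.42.0, other scalings, filters and limits, a replicate block and leaving out each library were alternatives. CPM were scaled with the TMM factors of all 28 libraries. SE are from the fitted model, and 95% intervals use its t quantiles. Log2 fold changes of all members, CDK8 and CDK19 were read, together with the genes of 9 lists past both limits in the same direction in both experiments (at most 4 a list) and the 5 genes closest to the member of widest range. The members and lists were chosen with earlier results of these data known. Positions and exon lengths are from GENCODE 29, and promoters from RefSeq (GRCh38.p14). The counts of 1 list are not reported here. The fits were tested on simulated counts.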

Additional observations from a re-analysis of the deposited data

Results flagged for a closer look

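For HEXIM1 the effect of an agent differed between groups in 3 tests, each past an FDR of 0.01. The interaction of R1881 and Senexin B at 24 h was 0.62 (log2), with a Senexin B effect of −0.84 without R1881 and −0.22 with it. The R1881 effect at 72 h exceeded that at 24 h by 0.44, being 0.21 at 1 nM and −0.24 at 0.1 nM. Without R1881, the SNX631 effect exceeded the Senexin B effect by 0.42, being −0.40 against −0.84. These tests share the 24 h vehicle libraries, and inhibitor, dose and duration cannot be told apart in the last pair. No library stood apart from its group in 36 groups of 4 tested (9 members in the 4 groups at 72 h), where chance gives about 1 in 20, and groups of 3 were not tested.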

How the results depend on the processing

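Of 20 member effects past an FDR of 0.01, 11 passed under all alternatives that were run. None of the 20 changed sign. The 9 others lost the call in at least 1 fit, and the report gives those losses beside each effect. Leaving out 1 library gave 35 losses in 316 fits, and the other settings gave 13 in 155. Another 26 effects did not pass but had an unadjusted p under 0.05 or were of HEXIM1, and 1 of them changed sign. They gained the call in 5 of 428 fits with 1 library left out and in 15 of 196 with other settings. Of 71 effects with an unadjusted p of 0.05 or more, 28 changed sign in some fit, and 0 passed in the other direction. These 71 gained the call in 1 of 1272 and 4 of 513 such fits. The HEXIM1 difference between SNX631 and Senexin B with R1881, near 0 throughout, ran from −0.073 to 0.046 with 1 library left out. The cause of these changes was not tested. Rounding, sampling of 235 or more counts a library and 3 or 4 libraries a group limit the members to differences of the size of the intervals given.

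The counts of members that passed changed with the limit and the scaling. With a fold change over 1.5 as well, 0 members passed in both R1881 alone comparisons, in both R1881 comparisons on top of an inhibitor, with SNX631, with either inhibitor on top of R1881, in the R1881 difference between experiments and in the inhibitor difference without R1881. With library totals only, 5 passed with R1881 at 24 h, 4 on top of Senexin B, 2 with Senexin B, 3 with Senexin B on top of R1881, 5 with R1881 at 72 h, 7 on top of SNX631 and 1 with SNX631. With DESeq2, 1 passed with R1881 at 24 h, 0 with Senexin B on top of R1881, 2 with R1881 on top of SNX631 and 1 with SNX631 on top of R1881. At an FDR under 0.05, 3 passed with Senexin B and 4 with Senexin B on top of R1881.

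Of the 64 other genes, 1.5-fold left 9 with R1881 at 24 h (35 at the FDR limit alone), 8 on top of Senexin B (31), 3 with Senexin B (22), 1 with Senexin B on top of R1881 (21), 8 with R1881 at 72 h (37), 9 on top of SNX631 (41), 3 with SNX631 (19), 3 with SNX631 on top of R1881 (26), 0 in the 72 h interaction (9), 3 in the R1881 difference between experiments (7) and 0 in the inhibitor difference with R1881 (5). An FDR under 0.05 gave 2 in the 24 h interaction (1), 13 in the R1881 difference (7) and 5 in the inhibitor difference without R1881 (3).

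With 1 library left out, members passing ranged from 1 to 2 with R1881 at 24 h, 2 to 4 on top of Senexin B, 0 to 1 with Senexin B on top of R1881, 2 to 4 with R1881 on top of SNX631, 1 to 2 with SNX631, 1 to 3 with SNX631 on top of R1881 and 0 to 1 in the inhibitor difference without R1881. Other genes ranged from 1 to 2 in the 24 h interaction, 5 to 11 in the 72 h interaction, and 1 to 5 and 3 to 5 in the inhibitor difference without and with R1881.

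Scaling to library totals only moved vehicle means at 72 h to 67.5 CPM for CDK9, 132.5 for CDK12, 75.6 for CDK13 (71.2 at 24 h), 65.8 for CCNH, 60.4 for CCNK, 115 for CCNT1, 66.4 for CCNT2 and 40.8 for HEXIM1. It moved the median of all genes by −0.10 (log2) with R1881 alone and by −0.11 on top of SNX631 at 72 h, and by less than that in the other comparisons.

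Replicate numbers left no visible shared deviation. Deviations from group means of same-numbered libraries correlated at −0.028 to 0.0745 (18 pairs at 24 h) and −0.0717 to 0.0713 (24 pairs at 72 h). Differently numbered libraries gave −0.068 to 0.0571 (36 pairs) and −0.107 to 0.0829 (72 pairs). Such values cannot tell whether the samples were paired by design, which the labels do not say. With the replicate number as a block, 2 members passed with Senexin B in place of 1.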
